A study of Mus musculus with 6 samples.

Results

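Chromatin accessibility near genes was compared between wild-type (WT) mouse embryonic pancreas at embryonic day 13.5 (E13.5) and at embryonic day 10.5 (E10.5), in the cells of 2 single-cell ATAC libraries. A cell was used if at least 2000 of the 8269 listed genes had a score above 0 and if the summed score of the 4 blood-lineage genes Slc4a1, Gypc, Tal1 and Lyl1 was below 15. These rules kept 711 of 838 cells at E10.5 and 1717 of 2314 cells at E13.5, in all 2428 of 3152 WT cells and of 4454 ATAC cells of both genotypes. The kept cell nearest to the lower limit had 2029 genes above 0 at E10.5 and 2002 at E13.5, and the highest kept blood sums were 14.0 and 14.9.

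The study profiled C57BL/6 embryos that were either WT (Ptf1a+/+) or homozygous for the deletion of an enhancer of Ptf1a (KO, Ptf1aenh-delta/enh-delta). At E10.5 the libraries were made from hand-dissected multipotent pancreatic progenitor tissue pooled from 5 to 9 embryos per dataset, and at E13.5 from the pancreas of 6 pooled embryos. Single-cell ATAC sequencing, which tags open chromatin with a transposase, was done at both stages on both genotypes, and single-cell RNA sequencing at E10.5. Each group is 1 library, so embryos cannot be separated, no value has a replicate error, no test was run, and stage, dissection and library cannot be told apart. A gene was called higher or lower where the mean score of the kept cells differed by at least 1.5-fold, and in what follows a fold or a log2 value compares those 2 libraries only.

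The pancreas buds from the foregut endoderm, and its early epithelium holds progenitors that give rise to acinar, duct and endocrine cells. Ptf1a is a transcription factor needed for the early pancreatic progenitors and later for acinar cells. Hedgehog signalling and the transcription factor Sox2 mark neighbouring foregut and stomach rather than the pancreatic bud, and Hox genes record position along the body axis in several germ layers.

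The gene score is an accessibility signal per gene and cell that sums to 10000 in every cell, so it gives a gene's share of a cell's signal, and the number of fragments behind it is unknown. Kept cells had a median of 5198 genes above 0 at E10.5 and 4014 at E13.5. The libraries therefore differ in how many genes a cell shows, and each ratio was repeated with cells weighted to the same spread of that number ("matched"). The summed score of the 7 measured epithelial progenitor markers was 33.1 at E10.5 and 34.4 at E13.5 on average, and every one of these markers was detected at both stages. The WT libraries shared 4 cell barcodes, 3 of them among the kept cells. Clustering each library separately gave 1 endocrine-like cluster per stage, with 54 of 711 cells at E10.5 (7.59%, exact 95% binomial interval 5.76 to 9.79) and 354 of 1717 at E13.5 (20.6%, 18.7 to 22.6). The intervals cover counting error only, and the genes that define these clusters are among those compared. All other E10.5 cells (657) formed 1 unnamed cluster. At E13.5 there were unnamed clusters of 746 and 606 cells and an erythroid-like one of 11 cells. No cluster of either WT library met the rule for a mesenchyme-like name. The 657 E10.5 cells came closest: 6 of 10 mesenchyme markers were raised, with a mean log2 ratio of 0.48 against the endocrine-like cells, the only others, but none was among the top 10 genes. In the E10.5 KO library the cluster of 542 of 616 cells had 0.49 with 5 of 10 raised and met the rule through Tcf21.

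Sequences before an annotated start are shown here for 4 genes on which the results turn. These are among the genes with the values described most fully, a pair in each direction. Each sequence is the 250 bases before an annotated RefSeq start (GRCm38.p6, mm10), written 5′ to 3′ on the gene's strand, with CG in capitals. CG is its own reverse complement, so both strands are covered. It is present in 99% of all 8567 windows of that table, with a median of 16 per window. Foxa1 (chr12:57546112-57546361, minus strand) and Nr2f2 (chr7:70366747-70366996, minus strand) were lower at E13.5. Ptf1a (chr2:19445413-19445662, plus strand) and Spp1 (chr5:104434861-104435110, plus strand) were higher. The Foxa1 window lies inside the annotated extent of the gene (chr12:57540628-57548029), so it is not upstream of the whole gene. Spp1 has a further window (chr5:104435942-104436191), also with 3 CG, that is not shown.
Foxa1: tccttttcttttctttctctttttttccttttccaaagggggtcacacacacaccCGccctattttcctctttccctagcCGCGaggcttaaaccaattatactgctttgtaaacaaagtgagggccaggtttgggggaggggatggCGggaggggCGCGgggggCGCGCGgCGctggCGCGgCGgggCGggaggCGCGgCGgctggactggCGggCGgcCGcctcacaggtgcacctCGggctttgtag
Nr2f2: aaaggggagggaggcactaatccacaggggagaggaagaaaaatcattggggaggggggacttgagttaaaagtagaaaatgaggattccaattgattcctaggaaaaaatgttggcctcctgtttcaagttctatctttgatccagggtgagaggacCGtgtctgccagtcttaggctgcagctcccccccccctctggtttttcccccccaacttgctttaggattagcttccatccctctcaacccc
Ptf1a: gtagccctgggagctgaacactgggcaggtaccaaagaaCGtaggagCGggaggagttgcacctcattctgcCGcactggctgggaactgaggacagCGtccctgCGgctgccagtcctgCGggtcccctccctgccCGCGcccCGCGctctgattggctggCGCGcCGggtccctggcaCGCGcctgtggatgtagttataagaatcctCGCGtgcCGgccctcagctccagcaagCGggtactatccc
Spp1: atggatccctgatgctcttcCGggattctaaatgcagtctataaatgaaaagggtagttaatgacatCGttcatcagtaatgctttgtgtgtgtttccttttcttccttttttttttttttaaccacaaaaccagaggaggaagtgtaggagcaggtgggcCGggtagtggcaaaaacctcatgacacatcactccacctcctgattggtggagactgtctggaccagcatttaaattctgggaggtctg
The Foxa1 window holds 21 CG, that of Nr2f2 1, that of Ptf1a 19 and that of Spp1 3. A comparison of CpG content over all called genes is void, because a window was available for only 72.6% of the genes called lower and 78.0% of those called higher, so these counts say nothing about the other called genes.

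Most genes had nearly the same share of the signal at both stages. Among the 26 gene lists, the medians furthest from 0 were those of Hox genes (-0.98), gut and stomach genes (-0.51) and mesenchyme genes (-0.39). All were lower at E13.5, and the mesenchyme list shares genes with each of the others. The single genes furthest from 0 included members of no list. Of 8217 genes above 0 in at least 10% of the kept cells of a library, 219 (2.67%) were called lower at E13.5 and 109 (1.33%) higher, together 3.99%. The median log2 ratio of E13.5 over E10.5 was -0.0034, with the 1st percentile of genes at -0.78 and the 99th at 0.61. At 2-fold, 26 genes were lower (0.316%) and 7 higher (0.0852%). After matching, 230 genes were lower (2.8%) and 123 higher (1.5%), together 4.3%, and all 219 and all 109 called genes kept their direction, 204 and 96 of them past 1.5-fold. Without the endocrine-like cells of both stages, 264 genes were lower (3.21%) and 159 higher (1.94%), together 5.15%, with 203 and 100 of the called genes past 1.5-fold.

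**Figure D1:**
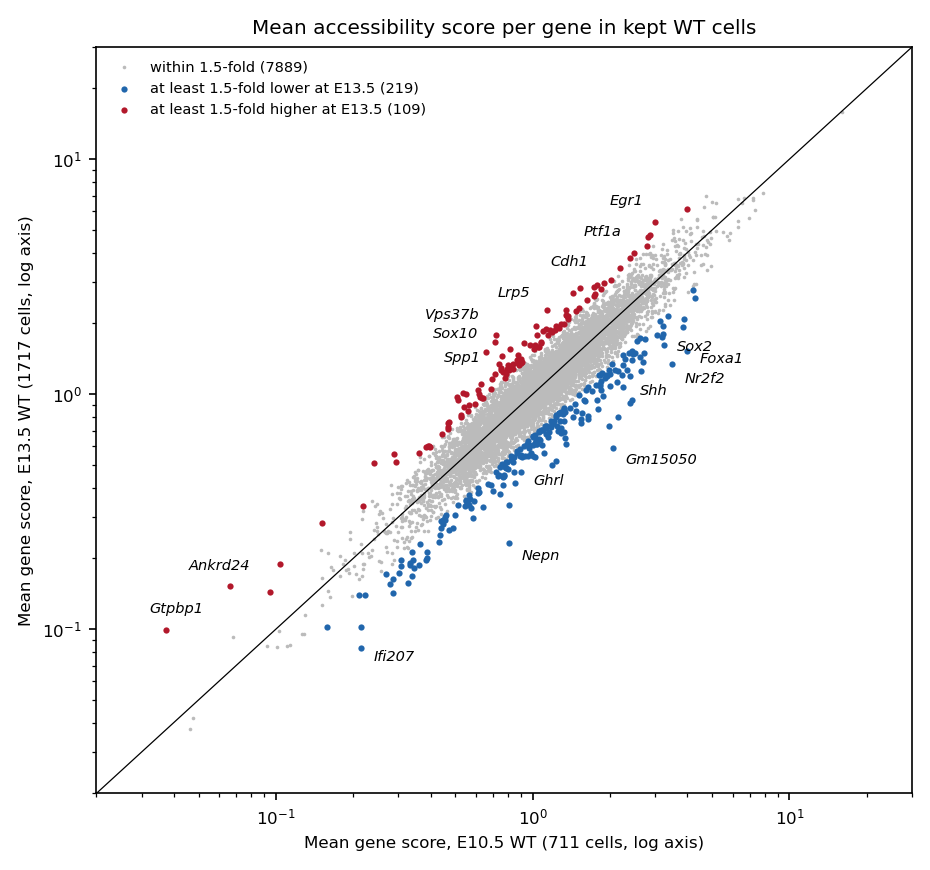
Mean gene score of the kept cells at E10.5 (x axis) and at E13.5 (y axis) for each of the 8217 genes, both on log axes; the line marks equal scores. The 219 genes called lower at E13.5 (blue) and the 109 called higher (red) lie on either side of the main band of genes, with Gm15050 and Nepn furthest below it and Gtpbp1, Vps37b and Sox10 furthest above among the labelled genes.

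Genes of the Hox clusters, which encode transcription factors of the body axis, were lower at E13.5 as a group. All 12 Hox genes in the table had a lower mean score at E13.5, and 10 of 12 were called lower, beside 2.67% of all genes, with a median log2 ratio of -0.98. Hoxa3 had a mean score of 2.44 at E10.5 and 0.946 at E13.5, a log2 ratio of -1.37 (-1.31 matched). A score above 0 was found in 77.5% of the E10.5 cells (exact binomial interval 74.2 to 80.5) and in 41.5% of the E13.5 cells (39.1 to 43.8), and after matching in 71.7% and 48.0%. The intervals cover the counting of cells within a library only, not differences between embryos or libraries. The median cell had a Hoxa3 score of 2.04 at E10.5 and none at E13.5. The mean score of Hoxa4 was 1.24 at E10.5 and 0.517 at E13.5, and that of Hoxb5 1.34 and 0.615. The smallest difference in the list was that of Hoxb7, 0.871 at E10.5 and 0.695 at E13.5, a log2 ratio of -0.32.

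The lower Hox genes lay side by side. The longest run of genes called lower with gaps under 100 kb held 8 genes on chromosome 6 (chr6:52102949-52218573), among them Halr1, Hotairm1, Hoxa3, Gm15050, Hoxa4, Hoxa5 and Hoxa7. Halr1 and Hotairm1 are long non-coding RNA genes of the HoxA cluster. Gm15050, Hoxa4 and Hoxa5 lie within the annotated extent of Hoxa3, so the called Hox genes are not all separate loci. Gm15050 had the lowest ratio of all genes (2.06 at E10.5 and 0.592 at E13.5, log2 -1.80). Skap2, the next listed gene beside the run, had a log2 ratio of -0.49 and was not called. A run of 5 genes on chromosome 11 (chr11:96292814-96354020) held Hoxb6, Hoxb5, Hoxb3, Hoxb4 and Hoxb2, with ratios from -1.13 to -0.73. Hoxb4 lies within the annotated extent of Hoxb3. Neighbouring genes can share signal in a gene score, since no source used here gives the region summed for each gene. Over all genes, the ratios of overlapping neighbours had a Pearson correlation of 0.572 (424 pairs), against 0.243 for neighbours 100 to 1000 kb apart (2371 pairs), which describes pairs from the same 2 libraries. Of the 218 lower genes with coordinates, 178 stood alone and 40 lay in 15 runs.

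**Figure D2:**
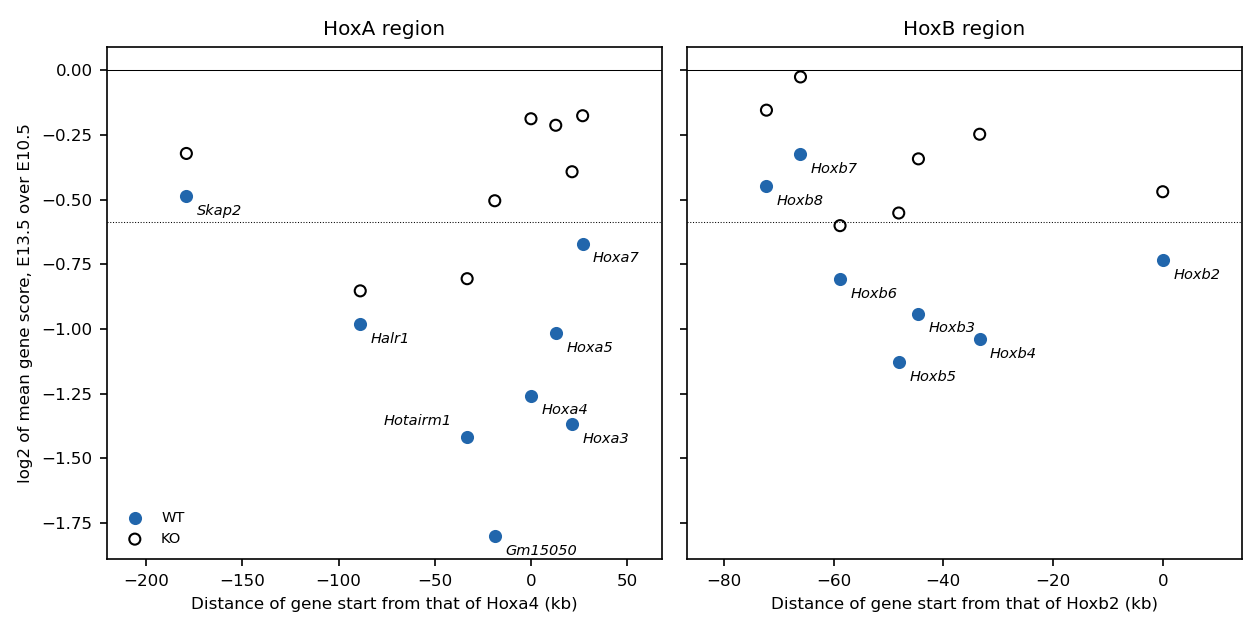
log2 ratio of the mean gene score, E13.5 over E10.5 (y axis), by distance of each gene's start from that of Hoxa4 or Hoxb2 in kb (x axis), in the WT libraries (filled) and in the KO libraries (open). The dotted line marks 1.5-fold; in WT every gene shown is below 0, from -1.80 at Gm15050 to -0.32 at Hoxb7, and the KO values are nearer to 0.

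Genes of the gut and stomach list were also lower. Of 12 tested genes of this list, 5 were called lower and none higher, with a median of -0.51 and 11 of 12 ratios negative. Sox2, a factor of the stomach and oesophagus epithelium, had a mean score of 3.26 at E10.5 and 1.62 at E13.5 (log2 -1.0, matched -1.01), with a score in 80.2% and 49.3% of the cells. After matching, these shares were 74.8% and 55.6%. Osr1 (-0.98), Isx (-0.77) and the hedgehog ligand Ihh (-0.67) were also called lower, and are named after their values were seen. The highest member, the galectin gene Lgals4, was level at 0.01. Barx1 and Nkx2-5 are also in the mesenchyme list, Ihh in the hedgehog list and Sox2 in the early embryo and neural lists. The list is thus not separate from those.

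In the hedgehog list 3 of 9 tested genes were called lower and none higher. Shh, the ligand kept out of the early pancreatic epithelium, had a mean score of 2.24 at E10.5 and 1.07 at E13.5 (log2 -1.07, matched -1.12). Its median score per cell was 1.59 at E10.5 and 0.302 at E13.5. Ihh and the transcriptional effector Gli3 (-0.69) were the other called genes, and the signal transducer Smo was 0.17.

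Most transcription factors of the early endoderm and the pancreatic progenitors were within 1.5-fold. Of 24 tested progenitor factors 2 were called lower, Foxa1 and Onecut2, and none higher, with a median of 0.05. Foxa1, a pioneer factor of the endoderm, had the lowest ratio of the list, with a mean score of 3.99 at E10.5 and 1.53 at E13.5 (log2 -1.38, matched -1.40). The median E10.5 cell had a Foxa1 score of 3.30, above the third quartile of the E13.5 cells, 2.11. The ratio was negative in each of 5 ranges of genes above 0 per cell, from -1.61 to -1.11. Onecut2, a hepatopancreatic factor, had 1.79 and 0.865 (log2 -1.05). Its neighbour St8sia3 was lower too (-1.25), so the values of this pair may share signal. The highest progenitor factor was Nkx2-2, required for endocrine cell types, with 2.37 and 3.55 (0.58), just inside 1.5-fold. Liver and biliary genes had a median of -0.32, with 8 of 19 called lower, Onecut2 lowest, and Hp the highest at 0.43.

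Nr2f2, a nuclear receptor of mesenchyme and foregut, and Epha4, a receptor of cell-contact signalling, were among the lowest genes that no list held. Nr2f2 had a mean score of 3.50 at E10.5 and 1.34 at E13.5 (log2 -1.38, matched -1.36). Epha4 had 2.38 and 0.919 (-1.38, matched -1.33). They were detected in 89.9% and 85.9% of the E10.5 cells and in 60.3% and 55.2% of the E13.5 cells. After matching, Nr2f2 was detected in 86.7% at E10.5 and 66.2% at E13.5, and Epha4 in 81.3% and 62.1%. Nepn, a secreted leucine-rich repeat protein that had been entered in the Notch list although it is not a component of that pathway, had 0.809 and 0.233 (-1.80). It was detected in 37.0% and 10.3% of the cells, and in 30.6% and 11.8% after matching. No other of the 17 tested members of that list was called, and 14 of 17 ratios were positive.

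**Figure D3:**
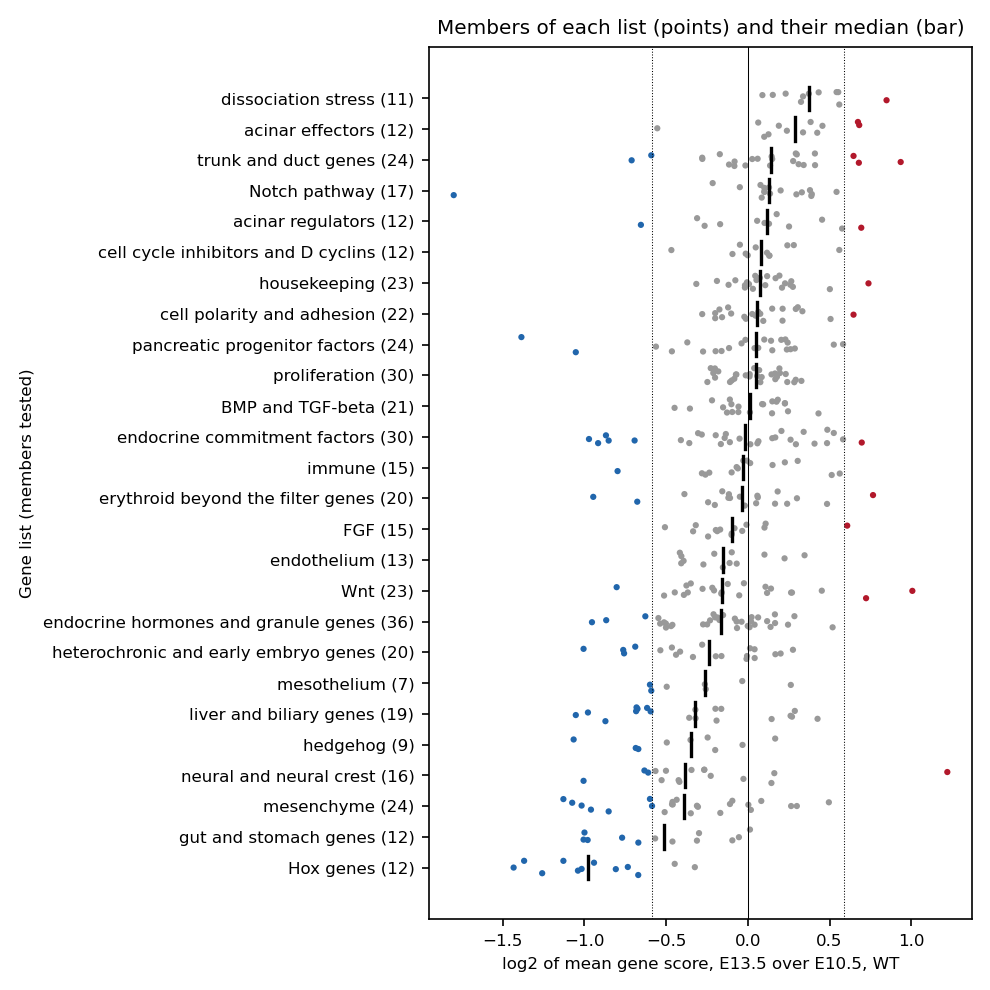
log2 ratio of the mean gene score, E13.5 over E10.5 in WT (x axis), for each tested member of the 26 gene lists (points) with the list's median (bar); blue and red points are past 1.5-fold (dotted lines) lower and higher, and point height within a row has no meaning. The medians run from -0.98 for Hox genes to 0.37 for dissociation stress genes.

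The mesenchyme list had a median of -0.39, with 7 of 24 tested genes called lower and none higher. Of the 7, Hoxb5 and Hoxa5 are also in the Hox list and Isl1 in that of endocrine commitment, so these lists are not separate. Tcf21, a factor of visceral mesenchyme, had a mean score of 1.64 at E10.5 and 0.781 at E13.5 (log2 -1.07), Hoxb5 was the lowest at -1.13, and Pbx3 the highest at 0.50. The summed score of the 10 mesenchyme markers, all of them measured and none at 0, was 12.2 on average at E10.5 (5th to 95th percentile of cells 4.29 to 21.5) and 10.2 at E13.5 (1.88 to 21.1). In bulk and in pooled means alike, fewer cells of a type and less signal per cell cannot be told apart, and the part of mesenchymal cells in these differences was not tested. The E10.5 WT RNA library gives a measure of which genes are expressed in such cells. Of its 451 kept cells (4106604 UMIs), 44 had a Col3a1 UMI and no Epcam UMI and 241 the reverse, with a median of 2612.5 and 10459 UMIs per cell. This split was chosen after the data were seen. Among genes with at least 10 UMIs in these 2 sets of cells together, 78 of 155 genes called lower (50.3%) had at least 2-fold higher CPM (the UMI sum scaled to a common total) in the Col3a1 cells than in the Epcam cells, beside 13.9% of all 7585 genes. The same held for 5 of 104 genes called higher (4.81%). In the other direction, 27 (17.4%) and 38 (36.5%) were at least 2-fold higher in the Epcam cells, beside 11.5% of all genes. These shares rest on few UMIs, since 1 UMI is 5.92 CPM in the Col3a1 cells and 0.388 CPM in the Epcam cells, and the genes called lower had a median of 13.9 CPM in all kept cells, beside 37.5 CPM over all genes. UMIs of both Col3a1 and Epcam were found in 71 cells, so the split also depends on single UMIs. With at least 100 UMIs, a minimum chosen after the data were seen, 8 of 38 lower genes (21.1%) were at least 2-fold higher in the Col3a1 cells, beside 5.81% of 4147 genes, and 14 of 38 (36.8%) in the Epcam cells, beside 8.78%. The order of these 2 shares thus turned with the minimum. The Col3a1 cells held 168777 UMIs and the Epcam cells 2579409, and the part of this difference in the turn was not tested. Nr2f2, for example, had 83.0 CPM in the Epcam cells and 319.9 CPM in the Col3a1 cells. Nepn had 797 CPM in the Epcam cells and 130 CPM in the Col3a1 cells. Over all kept RNA cells, Shh had 9 UMIs (2.19 CPM), Sox2 12 (2.92 CPM) and Foxa1 43 (10.5 CPM). The E10.5 scores of Shh, Sox2 and Foxa1 thus went with little RNA.

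Of the genes for endocrine commitment, 5 of 30 were called lower and 1 higher, with a median of -0.02. The lower genes were Irx2 (log2 -0.97), Irx1 (-0.92), Sox11 (-0.87), Isl1 (-0.85) and Rfx6 (-0.69), transcription factors of which Isl1 and Rfx6 are needed for islet cells. Isl1 had a mean score of 1.44 at E10.5 and 0.798 at E13.5. Within the endocrine-like cells alone Isl1 was 3.01 and 1.16, and in the largest cluster of each stage 1.31 and 0.690, so it was lower in both. In endocrine-like cells the log2 ratios of the other lower genes were -1.22 for Irx1 and -0.97 for Irx2. Those of Rfx6 (-0.26) and Sox11 (-0.12) were within 1.5-fold there. Pax4, a factor of beta-cell commitment, was the member called higher, with 0.467 at E10.5 and 0.756 at E13.5 (0.70). Leaving out the endocrine-like cells, which made up a larger share of the E13.5 library, took Pax4 to 0.40, below 1.5-fold. Pax4 is among the markers that name those cells and among their top 10 genes at both stages. This drop was therefore partly fixed in advance. In endocrine-like cells the mean score of Pax4 was 1.51 at E10.5 and 1.74 at E13.5. Among 36 hormone and granule genes 3 were called lower: Ghrl, which encodes ghrelin (-0.95), Ins1 (-0.87) and Scg5 (-0.63). Cryba2 was highest at 0.52.

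Ptf1a was the highest of 12 acinar regulators. Its mean score was 2.47 at E10.5 and 4.0 at E13.5, 1.62-fold higher (log2 0.69, matched 0.65, without endocrine-like cells 0.85). It was detected in 71.0% of the E10.5 cells and 67.1% of the E13.5 cells, and in 64.2% and 71.1% after matching, while the matched mean among cells with a score went from 3.76 to 5.35. The E13.5 value differed between clusters, with 4.32 and 5.04 in the unnamed clusters of 746 and 606 cells and 1.66 in the endocrine-like cluster. The cluster of 606 cells showed fewer genes, a median of 2825.5 above 0 against 4901.5 in that of 746. Ptf1a was detected in 58.6% of the 606 cells and in 79.5% of the 746. Gata4, an endoderm factor on the same list, was the only member called lower (3.38 and 2.15, -0.65), and the list's median was 0.12. Of 12 acinar effectors 2 were called higher, the chymotrypsinogen gene Ctrb1 (0.839 and 1.34, log2 0.68) and the colipase gene Clps (0.67), with 11 of 12 ratios positive, a median of 0.29, and Spink1 lowest at -0.55. With cells of at least 3000 genes above 0, the ratio of Ptf1a was 0.57, just under 1.5-fold. By range of genes above 0 per cell, the Ptf1a ratio was positive in all 5 ranges. It was highest in the lowest range, which held 64 E10.5 cells, and past 1.5-fold in each range below 5000 genes. From 5000 to 6000 genes it was 0.14, and above 6000 it was 0.46. The matched ratio of 0.65 thus averages over ranges that differ, with smaller differences in cells that showed more genes.

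Duct and epithelial genes gave 3 higher and 2 lower members among 24. Spp1, which encodes the secreted protein osteopontin, had a mean score of 0.761 at E10.5 and 1.45 at E13.5 (log2 0.93, matched 0.96). Cdh1, which encodes the epithelial adhesion protein E-cadherin, had 1.9 and 2.97 (0.65, matched 0.73), and Atp1b1, a subunit of the sodium pump, was the third (0.68). Car2 (-0.71) and Krt19 (-0.59, just past 1.5-fold) were lower. Without the blood score filter Car2 was -0.47 and Cdh1 0.56, and with cells of at least 1000 genes above 0 Car2 was -0.57, all within 1.5-fold. That filter alone left out 4 E10.5 and 133 E13.5 WT cells. Among the kept E13.5 cells, Car2 had its highest mean in the erythroid-like cluster, 2.56, against 0.473 to 0.603 in the other clusters.

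The genes with the highest ratios were of mixed function. The 109 higher genes had a median E10.5 mean score of 0.840, beside 1.05 over all genes. Gtpbp1, a GTP-binding protein, had 0.0374 and 0.0993 (log2 1.41), with a score in 6.19% and 10.7% of the cells. It passed the 10% rule only through the E13.5 cells, and its E10.5 mean was the lowest of all tested genes. Adding 0.1 to both means took its log2 ratio to 0.54. Vps37b, an ESCRT subunit, had 0.718 and 1.78 (1.31). Stk11, a kinase upstream of AMPK, had 0.658 and 1.5 (1.19). Lrp5, a Wnt co-receptor, had 1.14 and 2.29 (1.01), and was higher in every one of the 5 ranges of genes above 0, from 0.55 to 1.34. Sox10, known for the neural crest, had 0.713 and 1.66 (1.22). Its neighbour Polr2f, a subunit of RNA polymerases that lies beside it on chromosome 15, was also called higher (0.72). Other called genes of the neural list were lower, among them Sox2 and the neurofilament gene Nefl (-0.61). A run of 5 higher genes on chromosome 11 held Mxra7, Jmjd6, Mettl23, Srsf2 and Mfsd11, from 0.65 to 0.79, and 88 of the 109 higher genes stood alone.

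**Figure D4:**
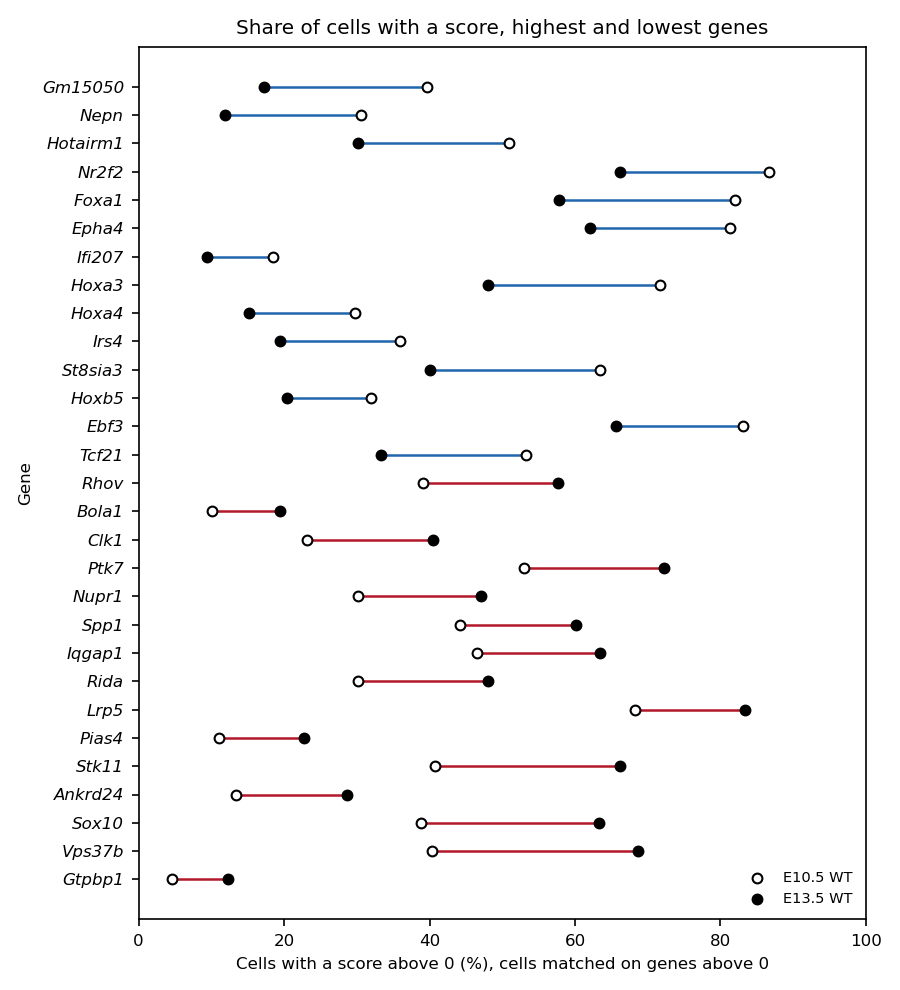
Percent of kept WT cells with a score above 0 (x axis) at E10.5 (open) and E13.5 (filled), with cells matched on the number of genes above 0, for genes among the 15 lowest and the 15 highest that stayed past 1.5-fold when matched. All lowest genes shown had a score in fewer cells at E13.5 and all highest genes shown in more, for example Foxa1 in 82.0% and 57.8% and Vps37b in 40.3% and 68.6%.

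Both the share of cells with a score and the score within those cells differed. Over the 219 genes called lower, the median matched log2 ratio was -0.37 for the share of cells and -0.35 for the mean among cells with a score. Over the 109 called higher it was 0.41 and 0.30. Over all genes it was 0.0050 and -0.022. In the 5 ranges of genes above 0 per cell, 196 of 219 lower genes and 106 of 109 higher genes kept their direction in every range. These genes were chosen from the same cells, so the counts describe them and test nothing.

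Of 11 tested genes induced by tissue dissociation, 1 was called higher, Egr1, and none lower. All 11 had a positive ratio, from 0.09 at Ier3 to 0.85 at Egr1, which is an immediate early gene whose mean score was 3.01 at E10.5 and 5.41 at E13.5. The list's median was 0.37, beside -0.0034 over all genes, and 0.08 in the KO libraries. Its part in the higher genes was not tested. Housekeeping genes had a median of 0.07, with Actb called higher (0.74). Proliferation genes showed no called member among 30, with ratios from -0.25 at Cdc20 to 0.33 at Birc5. Of 20 early embryo genes 4 were called lower, among them the heterochronic RNA-binding protein genes Lin28a (-0.76) and Lin28b (-0.69), along with Sox2 and Crabp2 (-0.76). Of 23 Wnt genes, Lrp5 and Wnt7b (0.72) were called higher and the mesenchymal ligand Wnt5a lower (-0.80). The FGF decoy receptor gene Fgfrl1 was the only one called of 15 FGF genes (0.61), a call that was lost after matching (0.56) and under 4 other alternatives (0.50 to 0.58). None of 21 BMP and TGF-beta genes was called.

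X-linked genes were lower as a group by a small amount. Of 282 tested X-linked genes 22 were called lower (7.80%) and none higher, beside 196 of 7927 autosomal genes (2.47%). The median log2 ratio was -0.10 on the X chromosome (-0.12 matched), and the medians of the 19 autosomes lay between -0.06 and 0.07. The insulin receptor substrate gene Irs4 had the lowest ratio among the named X-linked genes (0.81 and 0.34, log2 -1.26). In the KO libraries the X median was -0.11. No source used here gives the sex of the pooled embryos, and its part was not tested.

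The KO libraries gave the same stage comparison in other embryos, with 616 kept cells at E10.5 and 302 at E13.5. In them 109 genes were lower (1.33%) and 56 higher (0.682%), together 2.01%. Of the 219 genes lower in WT, 196 were also below 0 in KO (89.5%), beside 48.3% of all genes, and 50 were past 1.5-fold (22.8% of the WT list and 45.9% of the KO list). Of the 109 higher genes, 102 were above 0 in KO (93.6%), beside 51.7% of all genes, and 14 were past 1.5-fold (12.8% and 25%). Across the 8217 genes the WT and KO ratios had a Pearson correlation of 0.579 and a Spearman correlation of 0.540, which describes genes that are not independent replicates. The called genes had KO medians of -0.38 and 0.37, nearer to 0 than in WT. They were chosen for their WT ratios, and genes chosen this way tend to lie nearer to 0 in any other comparison, so the smaller KO values are not read as a difference between the genotypes. Foxa1 had a mean score of 4.31 at E10.5 and 2.46 at E13.5 in KO (log2 -0.81), Sox2 3.05 and 1.63 (-0.90) and Nepn 0.724 and 0.324 (-1.16). Hox genes had a KO median of -0.29, with 2 of 12 called lower.

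Ptf1a, whose enhancer is deleted in KO, had KO mean scores of 1.76 at E10.5 and 1.74 at E13.5 (log2 -0.018). The region summed into its score is unknown, so the WT score may include the deleted sequence, which was not tested. Pax4 had 0.514 and 0.475 in KO (-0.11). Onecut2 went the other way, with 1.94 and 2.60 in KO (0.42). With 1 library per group, whether a WT ratio differs from the KO ratio could not be tested, and the E13.5 libraries of the 2 genotypes also carry different months in their barcodes.

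**Figure D5:**
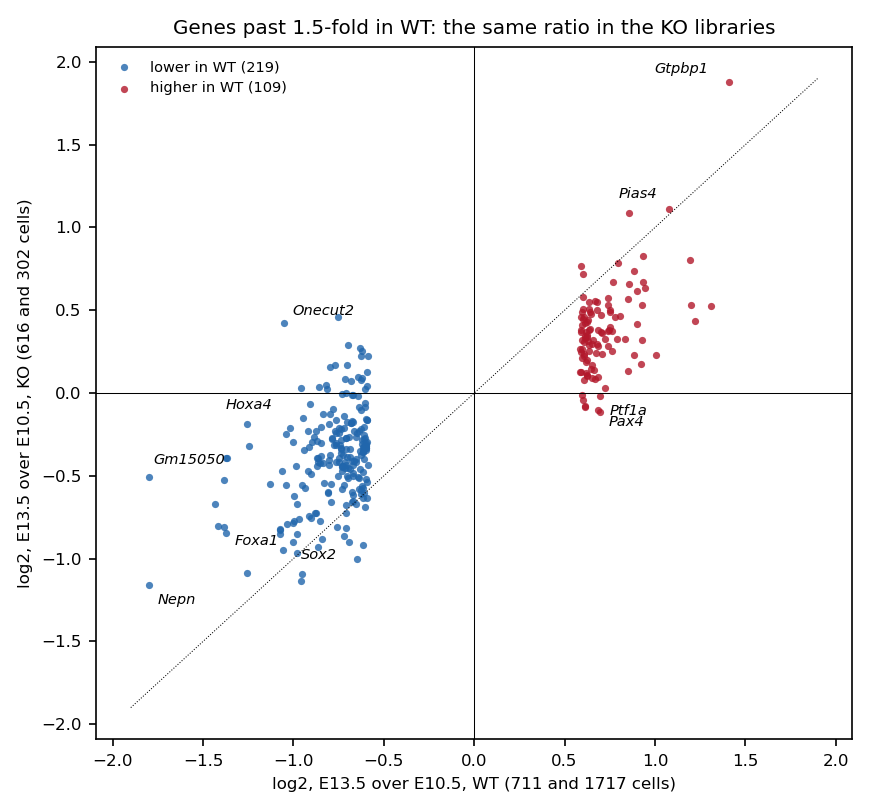
log2 ratio of the mean gene score, E13.5 over E10.5, in the WT libraries (x axis) and in the KO libraries (y axis) for the 219 genes lower (blue) and the 109 genes higher (red) in WT; the dotted line marks equal ratios. Most points keep their sign in KO (196 of 219 and 102 of 109) and lie nearer to 0 on the KO axis; Onecut2, Ptf1a and Pax4 are among those that do not keep it.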

How the data were processed

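Single-cell ATAC and RNA libraries were built with 10x Genomics kits, per the labels' protocols, and mm10 is the genome build in the submitters' processing notes. The deposited ATAC values are a gene-level accessibility signal. No source used here names the tool that made it, its annotation or the cell filters. UMI counts per gene and cell are the deposited RNA values. Cells were assigned to libraries by barcode prefix. No doublet caller was run.

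Ratios are log2 of the mean score over kept cells at E13.5 over E10.5, without a pseudocount, for genes scored in 10% or more of the kept WT cells of either stage. Matched values weight cells to the shared spread in bins of 250 genes above 0. Cells were clustered within each library with scanpy 1.11.5 and leidenalg 0.10.2 (2000 variable genes, 30 components, 15 neighbours, resolution 0.3). A cluster was named where its markers had a mean log2 ratio of at least 0.3, at least 3 were raised, at least 1 was among its top 10 genes and no other list had more there, thresholds set after the clusters were seen. RNA cells had at least 1000 genes. The calculation was tested on simulated data. Coordinates and promoter windows are RefSeq's (GRCm38.p6), and 47 of 77 named genes had a window.

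The genes named were Ptf1a, the highest and lowest member of each list, the called acinar regulators, progenitor and endocrine factors, and the 15 highest and 15 lowest genes that stayed past 1.5-fold when matched. Other called list members were named after their values were seen, and some genes that this rule selects are not reported here. The cells and lists were chosen with earlier results of these data known. Alternatives changed the cell filters, matching, scaling, averaging, pseudocount and gene filter.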

Additional observations from a re-analysis of the deposited data

Results flagged for a closer look

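Among the named genes past 1.5-fold in WT, 3 had a stage ratio of opposite sign in the KO libraries, with 1 library per group, so the difference was not tested. Onecut2 had a log2 ratio of -1.05 in WT and 0.42 in KO. Ptf1a had 0.69 in WT and -0.018 in KO, and whether its score sums the enhancer deleted in KO is unknown. Pax4 had 0.70 in WT and -0.11 in KO.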

How the results depend on the processing

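The 53 named genes past 1.5-fold in WT kept their direction under all 12 alternatives, 2 of which (leaving out erythroid-like clusters, and leaving out endocrine-like cells together with matching) were chosen after seeing the data. This was partly fixed in advance, since most were named for extreme ratios in the same cells. The 15 highest and 15 lowest also had to stay past 1.5-fold when matched, itself an alternative. Leaving out the gene filter changes no gene's ratio, and scaling by the median shifts all ratios equally. Of the 53 genes, 45 stayed past 1.5-fold under 11 alternatives, and the mean of log2(score + 1), a compressed scale, left 15 past it under all 12. The WT counts were 30 lower and 0 higher on that scale, 142 and 67 with a pseudocount of 0.1, and 26 and 7 at 2-fold. Without endocrine-like cells and matched, 172 were higher. The KO counts were 4 lower and 0 higher with the mean of log2(score + 1), 62 and 28 with the pseudocount, 172 and 93 without endocrine-like cells, 174 and 86 when also matched, and 90 higher with cells of at least 1000 genes above 0. Without the blood score filter, which left out 243 E13.5 KO cells, they were 1490 lower and 859 higher, and Rida and Spp1 turned to -0.11 and -0.11 in KO. The endocrine-like share at E13.5 was 23.5% and 24.1% at resolutions 0.5 and 0.8. The median ratio of all WT genes was between -0.07 and 0.0042 under these settings. Pax4 (without endocrine-like cells), Ptf1a (cells of at least 3000 genes above 0) and Gtpbp1 (pseudocount) were among the 8 named genes that dropped below 1.5-fold under an alternative other than the compressed scale. No paired analysis was possible because each group is 1 library. Depth is unknown for the score, so a difference at a gene seen in few cells cannot be given a counting error.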
